A study of Sus scrofa with 32 samples.

Results

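A set of 10 genes, the members, was followed through the lymphocytes of the porcine ileum and blood: TAC3, GPR82, MFAP5, CA2, KLK7, IGFBP2, GPRC5D, LTC4S, PDGFA and ADGRG1. They were chosen, out of the 25880 genes of the count matrices, because they stood out in intestinal lymphocytes; most are better known from other cells. They were thus selected on their measured levels by cell gate, by cytotoxic state and in ileum against blood, and those levels are described here without a test. The libraries came from 2 mixed-breed pigs of 7 weeks, pig 1 labelled female and pig 2 labelled male. Each pig gave a piece of ileum that held Peyer's patches (PP), a piece that held none (non-PP), a piece of whole ileum, and peripheral blood mononuclear cells (PBMC), so that there were 8 droplet libraries of untreated cells. The ileal suspensions held cells of the epithelium down to the submucosa and were enriched for living lymphocytes.

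In all, 48629 cells passed the filters on unique molecular identifiers (UMIs), genes and mitochondrial share, with 3776 to 7704 cells and 21134542 to 40111934 UMIs per library. The library labelled whole ileum of pig 1, the female, held 155 CPM of the Y-linked DDX3Y (CPM are UMIs of a gene per 1000000 UMIs of the same cells), against 136 to 173 CPM in the ileal libraries of pig 2 and at most 0.161 CPM in the other libraries of pig 1. That library is therefore called the library labelled whole ileum pig 1 below, and the ratios of ileum to blood, and the difference between dissections for TAC3 and ADGRG1, are also given without it. Any pair of libraries shared 21 to 80 cell barcodes.

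Lymphocytes of the gut include gamma delta T cells, cytotoxic CD8 T cells and innate lymphoid cells. They sit in or under the epithelium, and many carry granzymes or, in the type 3 branch, interleukin-22, which acts on epithelial cells. Cells were gated on UMIs: TRDC+ T cells (CD3E with the gamma delta receptor constant gene TRDC), CD8B+ T cells, and CD3E- CD2+ cells with no CD4, CD8B or B cell marker UMI, with IL22+ cells described beside them. In the 6 ileal libraries these 3 gates held 4474, 2756 and 1917 cells. In the CD3E- CD2+ gate CD3G ran at 618 to 2158 CPM, against 1192 to 1821 CPM in TRDC+ T cells. The paper reports CD3G in some ileal innate lymphoid cells, which largely lack CD3E. CD3G thus cannot tell them from T cells in the gate. The gate was not shown to be a clean sort of innate lymphoid cells. TRDC itself stayed at 60.5 to 342 CPM in it, against 3067 to 3523 CPM in TRDC+ T cells.

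The members' levels differed by gate. By mean over the 6 ileal libraries, GPR82, MFAP5 and CA2 were highest of the 3 gates in TRDC+ T cells, KLK7 and IGFBP2 in CD8B+ T cells, and TAC3, GPRC5D, LTC4S, PDGFA and ADGRG1 in CD3E- CD2+ cells. Free RNA in the droplets was bounded from genes that these cells should lack, and with its upper limit subtracted the leading gate of 10 of 10 members was the same. GZMH had no named row, so that counts of GZMB may include those of its close copy. On RefSeq's Sscrofa11.1 annotation, 9 of the 10 members were matched by symbol, and their positions are given with each gene.

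**Figure D1:**
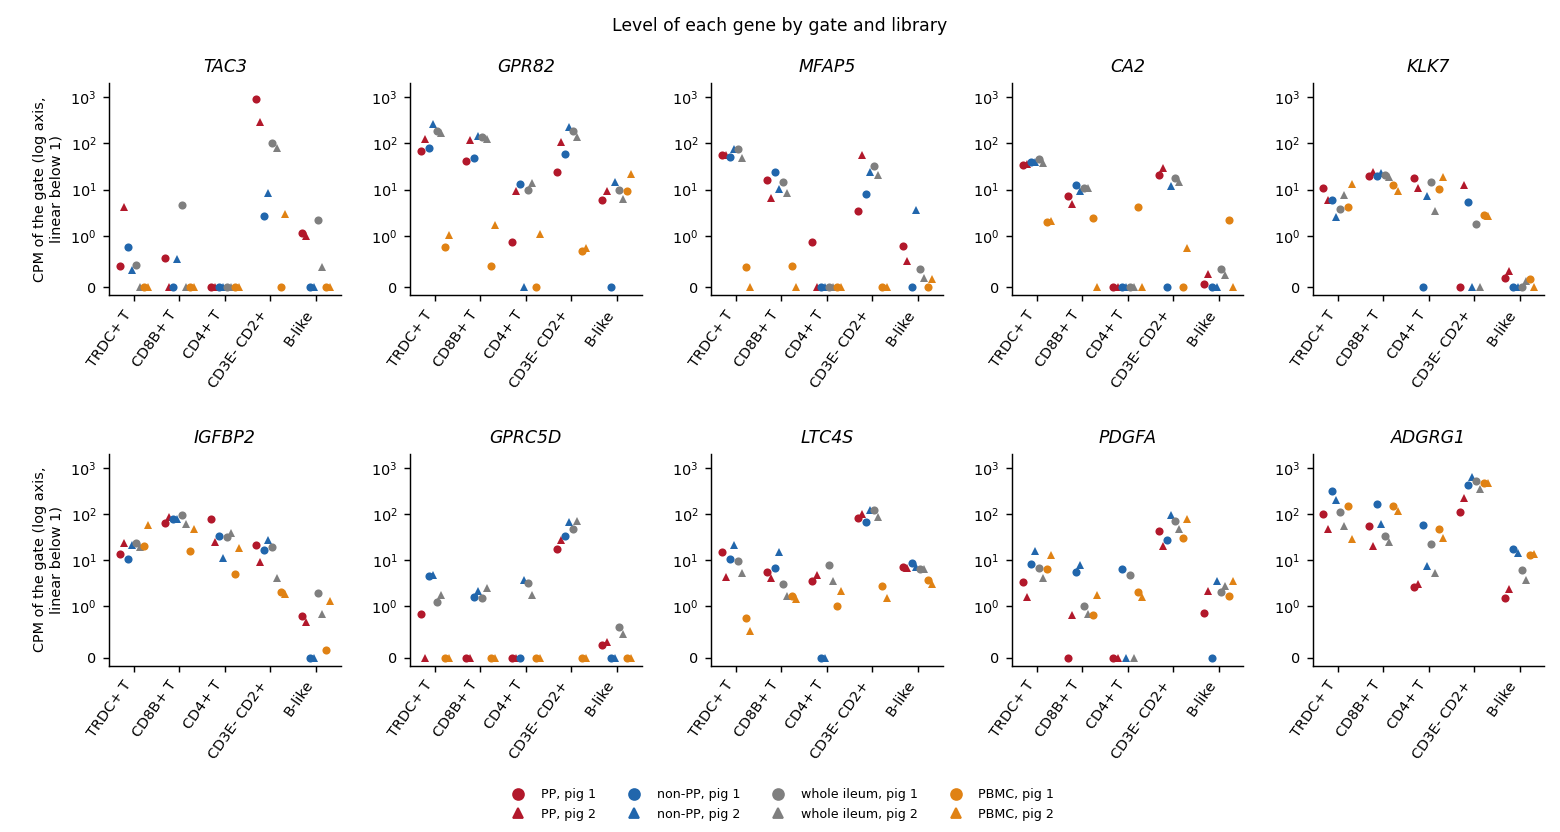
CPM of each member (vertical, log axis that is linear below 1) in 5 gates (horizontal), 1 point per library, with colour for dissection or blood and shape for pig. TAC3, GPRC5D and LTC4S stand high in the ileal CD3E- CD2+ cells, MFAP5 and CA2 lead in ileal TRDC+ T cells with blood near 0, and ADGRG1 is as high in blood as in ileum in the CD3E- CD2+ gate.

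TAC3 (ENSSSCG00000000418, chr5:22324927-22336464) encodes the precursor of neurokinin B, a tachykinin peptide known from hypothalamic neurons. In the CD3E- CD2+ gate its level was 927 and 291 CPM in PP of pigs 1 and 2. In non-PP it was 2.74 and 8.45 CPM, in the libraries labelled whole ileum 104 and 80.2 CPM, and in blood 0 and 3.03 CPM. Both PP libraries lay above both libraries labelled whole ileum, and these above both non-PP libraries. Among IL22+ CD3E- cells, 13 to 46 cells per ileal library, TAC3 reached 2561 and 1062 CPM in PP, 0 and 237 CPM in non-PP, and 1011 and 595 CPM in the libraries labelled whole ileum. No IL22+ CD3E- cell was found in blood. The ileal CD3E- CD2+ gate held at least 103-fold the blood level of TAC3 in pig 1 (at least 195-fold without the library labelled whole ileum) and 21.2-fold in pig 2 (95% counting interval 10.6 to 49.7). The 8 blood UMIs of pig 2 came from 1 of 858 cells. The interval takes UMIs as independent and is thus too narrow.

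TAC3 was the 1 member called between dissections in the fit without a pig block. In the CD3E- CD2+ gate it was higher in PP than in non-PP by 6.41 on the log2 scale (SE 0.617, adjusted p = 0.00899, edgeR's quasi-likelihood test over 5028 genes, 2 libraries a group and 6 in the fit), higher in 2 of 2 pigs. In that comparison 15 genes were called, a background of 0.298%. The change was 6.42 without the library labelled whole ileum pig 1. It moved to 5.40 without PP of pig 1 and to 7.59 without non-PP of pig 2, fits that leave 1 library in a group, which is then assumed to vary like the other groups. The makeup of the gate moved with the dissection: GZMB-high cells (2 or more UMIs of the granzyme B gene and more than of CTSW) were 24 of 106 and 93 of 204 cells in PP against 115 of 152 and 747 of 825 cells in non-PP. CTSW-high cells, defined the other way round, held 2166.3 and 762 CPM of TAC3 in PP and 10.98 and 82.9 CPM in non-PP, a difference of 4.60 on the log2 scale (adjusted p = 0.0471, edgeR). IL22+ cells were 23 of 106 and 40 of 204 cells of the gate in PP against 8 of 152 and 32 of 825 in non-PP. Among CTSW-high cells they were 19 of 37 and 29 of 61 in PP against 6 of 29 and 11 of 62 in non-PP. The makeup thus moved within CTSW-high cells too, and its part in the result was not tested. GZMB-high cells held no TAC3 UMI in 5 of 6 ileal libraries. The mast marker FCER1A, the 1 mast marker tested, also rose with PP in this gate (3.22, adjusted p = 0.0398, edgeR). Ileal mast-like cells, 7 to 22 per library, held no TAC3 UMI, and the part of FCER1A in the result was not tested. Fewer cells of a kind and less RNA per cell cannot be told apart in sums over a gate.

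The share of CD3E- CD2+ cells with a TAC3 UMI ran from 0.364% in non-PP of pig 2 to 18.9% in PP of pig 1. In ileal B-like cells, which should lack it, the share was at most 0.242% at median depths of 2336 to 4167 UMIs, against 2062 to 2733 UMIs in the gate. With each cell thinned to the lowest depth kept, the shares in the gate ran from 0% to 17.0% and in B-like cells to 0.0969%. Cells of the gate with a TAC3 UMI (61 cells) held 26.4-fold the IL22 of those without and 24.0-fold the LTB, each in 4 of 4 libraries that could be compared. They were also deeper, with a median of 3520 against 2494 UMIs. GZMB stood at 0.00673 of the level in the other cells and GNLY, the granulysin gene, at 0.00594. The members were chosen with IL22 gates and with GZMB against CTSW, so the IL22 and GZMB ratios follow in part from that choice. Over 60 gate and library profiles the genes most like TAC3 included CD109 (Pearson r = 0.95) and IL23R (r = 0.94), and the profiles share libraries and cells. The tachykinin receptors were nearly without counts in the ileal suspensions, with 8 UMIs of TACR1, 25 of TACR2 and 2 of TACR3 in all cells. The outer muscle layer had been removed and lymphocytes enriched, so these counts do not stand for the whole tissue. Of the 6 genes of the tachykinin list, 1, TAC3, reached 10 CPM in the 3 gates together.

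**Figure D2:**
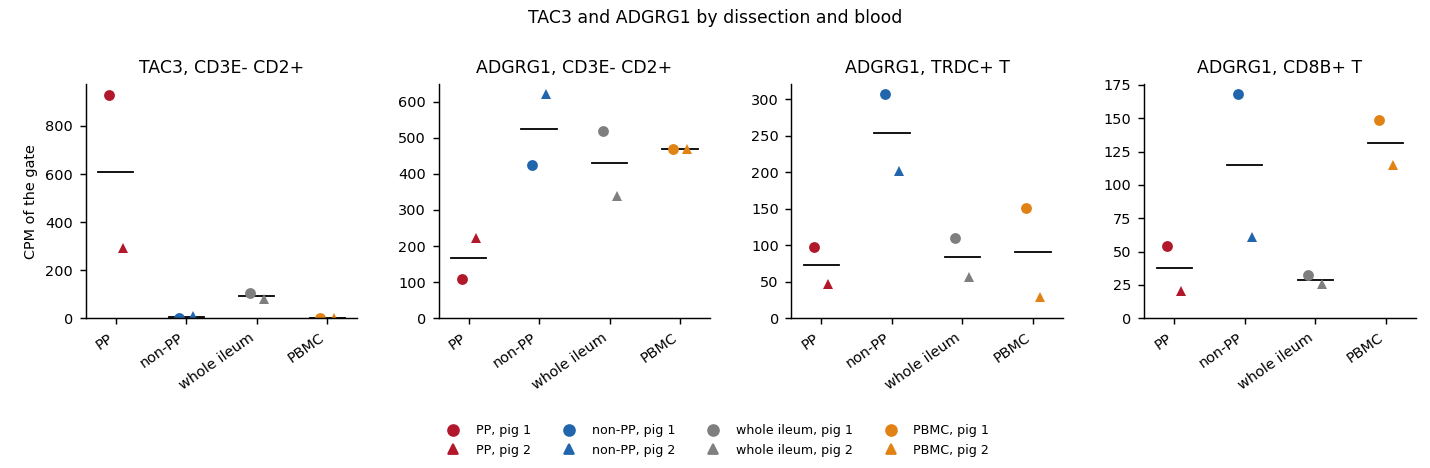
CPM (vertical, from 0) of TAC3 in CD3E- CD2+ cells and of ADGRG1 in 3 gates, by dissection and blood (horizontal), 1 point per library with shape for pig and a line at the mean of 2 libraries. TAC3 stands at 927 and 291 CPM in PP and at 2.74 and 8.45 CPM in non-PP, and ADGRG1 is lower in PP than in non-PP in each gate.

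ADGRG1 (ENSSSCG00000002815, chr6:19523618-19570891), the adhesion receptor GPR56, is known from cytotoxic lymphocytes and from brain development. In CD3E- CD2+ cells it stood at 109 and 224 CPM in PP, 425 and 622 CPM in non-PP, 518 and 339 CPM in the libraries labelled whole ileum and 470 CPM in blood of either pig. In TRDC+ T cells it was 98.3 and 46.9 CPM in PP, 307 and 202 CPM in non-PP, 111 and 56.0 CPM in the libraries labelled whole ileum, and 152 and 29.4 CPM in blood. In CD8B+ T cells it was 54.2 and 20.6 CPM in PP, 168 and 61.2 CPM in non-PP, 32.7 and 25.3 CPM in the libraries labelled whole ileum, and 149 and 115 CPM in blood. PP lay below non-PP of the same pig in all 3 gates, and the groups did not overlap.

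The difference of ADGRG1 between PP and non-PP did not pass the test. It was -1.82 on the log2 scale in TRDC+ T cells (SE 0.423, adjusted p = 0.145), -1.57 in CD8B+ T cells (SE 0.524, adjusted p = 0.502) and -1.56 in CD3E- CD2+ cells (SE 0.361, adjusted p = 0.145, edgeR's quasi-likelihood test). Without the library labelled whole ileum pig 1 the values were -1.81, -1.58 and -1.58 (adjusted p = 0.231, 0.632 and 0.194, edgeR). With the pig, as labelled, as a replicate block it passed in TRDC+ T cells (-1.87, adjusted p = 0.00835) and in CD8B+ T cells (-1.57, adjusted p = 0.0231), and not in CD3E- CD2+ cells (-1.58, adjusted p = 0.0771, edgeR). The block on the 4 PP and non-PP libraries alone was a fit added after seeing the data, and it leaves little to measure the spread. It called 294, 401 and 287 genes in the 3 gates. There the ADGRG1 difference had adjusted p = 0.00486, 4.1e-12 and 3.6e-09 (edgeR). In CD3E- CD2+ cells it also passed with DESeq2 (adjusted p = 0.0332) and without non-PP of pig 1 (-1.72, adjusted p = 0.0171, edgeR). In CD8B+ T cells it was -0.57 without non-PP of pig 1 (adjusted p = 0.678) and -2.13 without non-PP of pig 2 (adjusted p = 0.0444, edgeR). These fits hold 1 non-PP library. GZMB-high cells, fewer in PP of the CD3E- CD2+ gate as given above, were also 162 of 579 and 200 of 564 TRDC+ T cells in PP against 743 of 1180 and 601 of 893 in non-PP. Within GZMB-high cells the difference was -1.17 in TRDC+ T cells (adjusted p = 0.328), -1.20 in CD8B+ T cells (adjusted p = 0.911) and -0.52 in CD3E- CD2+ cells (adjusted p = 1.00, edgeR). Within CTSW-high cells it was -1.25, -2.66 and -1.22 (adjusted p = 0.685, 0.211 and 0.576, edgeR).

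By cytotoxic state, ADGRG1 was higher in GZMB-high than in CTSW-high cells in 6 of 6 ileal libraries in each gate, with medians of 535 against 120 CPM in CD3E- CD2+ cells and no overlap there. In TRDC+ T cells the medians were 201 and 59.0 CPM. In blood CD3E- CD2+ cells the states were close, at 510 and 520 CPM in GZMB-high and 520 and 535 CPM in CTSW-high cells. Cells with an ADGRG1 UMI held 5.05-fold the GNLY of those without in the TRDC+ T gate and 4.69-fold in the CD8B+ T gate. The profiles most like it were those of CPNE2 (r = 0.88) and GNLY (r = 0.84). Against blood, the 2 T gates went opposite ways: pooled ileal TRDC+ T cells held 1.28-fold (pig 1) and 4.10-fold (pig 2) the blood level, and CD8B+ T cells held 0.630-fold and 0.344-fold. In pig 1 the ratios were 1.49 and 0.818 without the library labelled whole ileum. Of the adhesion receptor list, 5 of 17 genes reached 10 CPM in the 3 gates together, among them ADGRE5 and CD81, a partner protein of ADGRG1.

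MFAP5 and CA2 shared a pattern. MFAP5 (ENSSSCG00000031712, chr5:62742520-62757522) encodes a glycoprotein of elastic microfibrils, and CA2 (ENSSSCG00000006140) encodes carbonic anhydrase 2, which interconverts carbon dioxide and bicarbonate. In TRDC+ T cells MFAP5 stood at 57.2 and 56.6 CPM in PP, 51.0 and 76.7 CPM in non-PP, 75.6 and 48.5 CPM in the libraries labelled whole ileum, and 0.390 and 0 CPM in blood. CA2 stood at 33.5 and 36.7 CPM in PP, 38.8 and 39.8 CPM in non-PP, 46.1 and 38.1 CPM in the libraries labelled whole ileum, and 1.95 and 2.10 CPM in blood. No ileal library overlapped with blood for either gene. For CA2 the ileum held 20.2-fold (95% counting interval 8.56 to 62.5) and 18.3-fold (7.06 to 67.7) the blood level in pigs 1 and 2, and 18.9-fold in pig 1 without the library labelled whole ileum. For MFAP5 it held 153-fold in pig 1 (27.2 to 6036, from 1 blood UMI; 137-fold without the library labelled whole ileum) and at least 40.4-fold in pig 2, where blood had no UMI. PP minus non-PP in TRDC+ T cells was -0.16 for MFAP5 (SE 0.255, adjusted p = 0.859) and -0.17 for CA2 (SE 0.172, adjusted p = 0.758, edgeR).

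Both genes lay with CTSW and not with GZMB, a contrast on which the members were chosen. In TRDC+ T cells MFAP5 ran from 84.3 to 200 CPM (median 122) in CTSW-high cells and from 0 to 22.7 CPM (median 11.8) in GZMB-high cells of the same libraries. CA2 ran from 57.9 to 107 CPM (median 78.2) against 2.96 to 24.3 CPM (median 12.1). In CD8B+ T cells the ranges did not overlap either, at 21.7 to 79.1 against 1.22 to 9.59 CPM for MFAP5 and 10.8 to 45.4 against 0.980 to 4.26 CPM for CA2. TRDC+ T cells with an MFAP5 UMI held 2.29-fold the CCR9, the gut homing receptor, of those without, and as many times the KIT and the CA2, each in 6 of 6 libraries, and 0.171 of the GZMB level. Cells with a UMI were deeper, with a median of 3370 against 2756 UMIs. MFAP5 was the gene most like CA2 over the 60 profiles (r = 0.79). Stromal-like cells, a usual source of MFAP5, held it at 183 to 633 CPM in 3 ileal libraries and at 0 in the other three; the 8 stromal markers summed to at most 156 CPM in TRDC+ T cells, and their part in the result was not tested. Of 17 microfibril genes, MFAP5 alone reached 10 CPM in the 3 gates together. Of 18 genes of carbonic anhydrases and bicarbonate transport, 5 did, among them CA14 and the transporter SLC4A7.

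**Figure D3:**
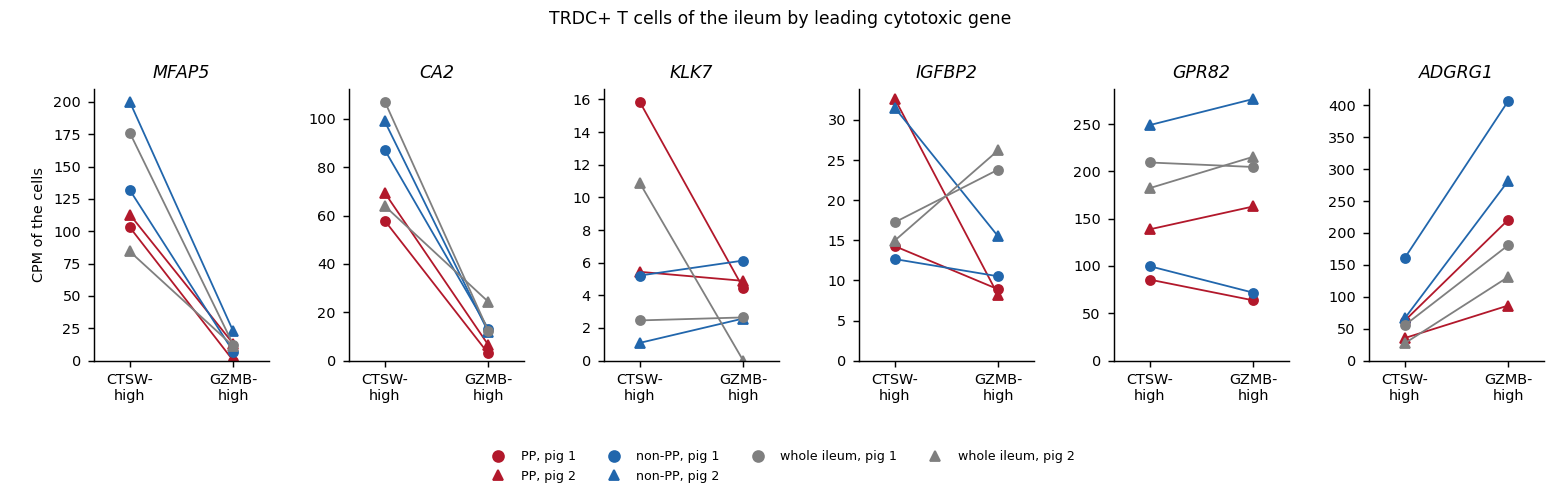
CPM (vertical, from 0) of 6 members in CTSW-high and GZMB-high TRDC+ T cells (horizontal), with a line joining the values of each of the 6 ileal libraries. MFAP5 and CA2 fall from CTSW-high to GZMB-high cells in all 6 libraries, ADGRG1 rises in all 6, and KLK7, IGFBP2 and GPR82 go either way.

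GPR82 (ENSSSCG00000012254, chrX:37328672-37334144) is an orphan receptor related to the P2Y receptors. It stood at 67.3 and 127 CPM in TRDC+ T cells of PP, 80.3 and 258 CPM in non-PP, and 190 and 165 CPM in the libraries labelled whole ileum. Its means in TRDC+ T, CD3E- CD2+ and CD8B+ T cells (148, 123 and 102 CPM) differed by less than the spread over libraries. Pooled over the ileal libraries, GPR82 was higher in CD3E- CD2+ cells (175 CPM) than in TRDC+ T cells (146 CPM). In blood it stood at 0.780 and 1.05 CPM in TRDC+ T cells, from 2 UMIs in each pig. The ratio of ileum to blood there was 137 (38 to 1133) in pig 1 and 187 (52 to 1549) in pig 2, and 96.6 in pig 1 without the library labelled whole ileum. Of the 234 GPR82 UMIs in blood, 80.3% fell in B-like cells, which held 20.9% of all blood UMIs. The genes most like it were ITGAE, the integrin that holds lymphocytes to epithelium (r = 0.86), and CD200R1 (r = 0.81).

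The levels of this X-linked gene also split by library. PP and non-PP of pig 1 held the lowest values in TRDC+ T cells, below the 4 ileal libraries with DDX3Y. The library labelled whole ileum pig 1 sat with those of pig 2 in the CD8B+ T gate too, at 139 CPM against 117, 143 and 124 CPM, where PP and non-PP of pig 1 had 42.2 and 47.6 CPM. PP minus non-PP was -0.78 in TRDC+ T cells (adjusted p = 0.614, edgeR) and did not pass in any of the 3 gates. In CD3E- CD2+ cells it was -1.01 (adjusted p = 0.642, edgeR). There it passed with the pig as a block on the 4 PP and non-PP libraries (adjusted p = 0.00341, edgeR), the fit added after seeing the data. Of 14 named orphan and P2Y-like receptors, 9 reached 10 CPM in the 3 gates together, among them GPR18, GPR171 and GPR183.

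**Figure D4:**
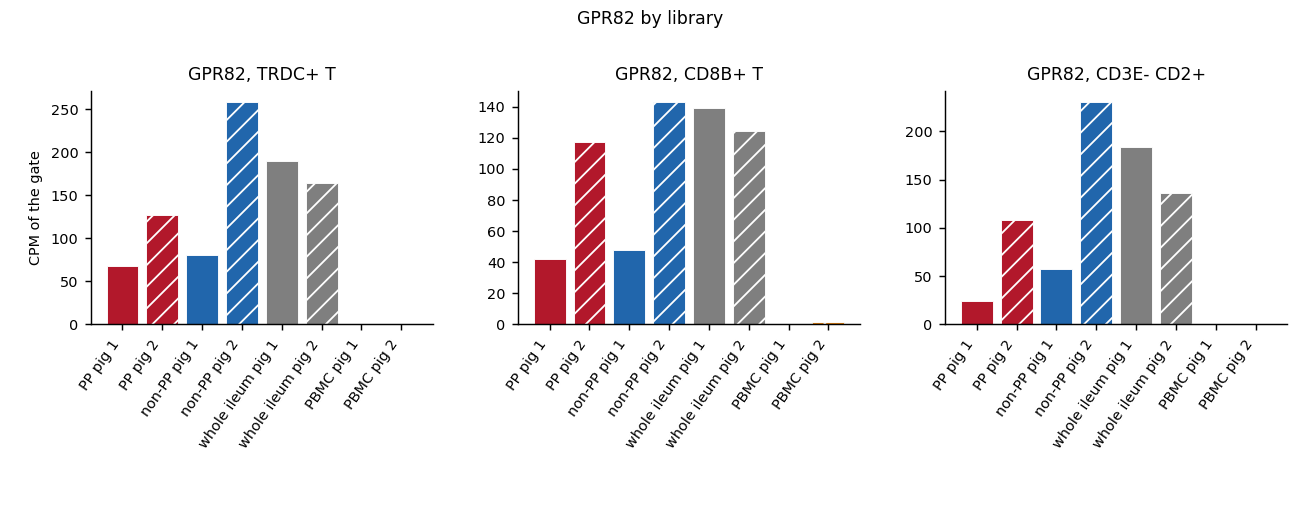
CPM of GPR82 (vertical, bars from 0) by library (horizontal) in 3 gates, with colour for dissection or blood and hatching for libraries labelled pig 2. In the TRDC+ T gate the libraries run from 67.3 CPM (PP pig 1) to 258 CPM (non-PP pig 2), and blood stays at 0.780 and 1.05 CPM.

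KLK7 and IGFBP2 led in CD8B+ T cells. KLK7 (ENSSSCG00000032902, chr6:55644627-55649000) encodes a serine protease that sheds cells from the skin surface, and IGFBP2 (ENSSSCG00000035392, chr15:118822092-118850985) a protein that binds insulin-like growth factors. KLK7 held 19.4 and 23.9 CPM in PP, 19.8 and 23.2 CPM in non-PP, 20.9 and 18.6 CPM in the libraries labelled whole ileum, and 12.48 and 9.42 CPM in blood. IGFBP2 held 62.8 and 85.8 CPM, 78.1 and 79.4 CPM, and 95.5 and 61.6 CPM in the same order, and 15.8 and 47.8 CPM in blood. Its mean over the ileal libraries was 77.2 CPM in CD8B+ T cells, against 83.2 CPM (0 to 169 CPM) in stromal-like cells. In CD8B+ T cells, all ileal libraries lay above both blood libraries for each gene. PP and non-PP differed by 0.05 on the log2 scale for KLK7 (SE 0.247, adjusted p = 0.988) and by -0.05 for IGFBP2 (SE 0.2496, adjusted p = 0.984, edgeR).

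In the TRDC+ T gate, IGFBP2 went the other way: the ileum held 0.729 (0.526 to 1.02) of the blood level in pig 1 (0.582 without the library labelled whole ileum) and 0.371 (0.286 to 0.481) in pig 2. There blood TRDC+ T cells without CD2 held 48.6 and 86.2 CPM, against 4.88 and 22.7 CPM with CD2. Ileal means by dissection were 13.2 to 19.5 CPM without CD2 and 16.3 to 23.6 CPM with CD2. Blood means were 67.4 and 13.8 CPM, so by mean the ileum was lower without CD2 and not with it. KLK7 means in ileum and blood were 6.09 and 8.72 CPM in TRDC+ T cells and 8.99 and 14.7 CPM in CD4+ T cells. In CD3E- CD2+ cells they were 3.35 and 2.72 CPM. Ileal and blood libraries overlapped in each of these gates. CD8B+ T cells with an IGFBP2 UMI held 0.335 of the KLRK1 level and 0.349 of the FCER1G level of the others. Those with a KLK7 UMI held 0.507 and 0.495. KLRK1 and FCER1G are known from natural killer cells. Cells with a UMI were deeper, with medians of 4001 against 2698 UMIs for IGFBP2 and 3750 against 2803 UMIs for KLK7. CD6 was the gene most like each (r = 0.83 for KLK7 and 0.81 for IGFBP2), and GZMK was among the nearest 3 of both. Of 16 named kallikrein genes KLK7 alone reached 10 CPM in the 3 gates together, and of 13 named genes of the insulin-like growth factor list, 3 did: IGF2R, IGFBP2 and IGFBP7.

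GPRC5D (ENSSSCG00000029545, chr5:59534913-59545417) is an orphan receptor known from plasma cells and hair follicles. In CD3E- CD2+ cells it stood at 17.6 and 27.5 CPM in PP, 32.9 and 68.5 CPM in non-PP, and 47.9 and 70.0 CPM in the libraries labelled whole ileum. Blood had no UMI in 555 and 858 cells, which allows a share of up to 0.541% and 0.350% of cells with a UMI (counting error only), and the ileum held at least 19.1-fold and 54.7-fold the blood level. Without the libraries labelled whole ileum, it was at least 12.52-fold and 53.5-fold. In TRDC+ T cells, 0 to 4.90 CPM, the level passed the upper limit for free RNA in 2 of 6 libraries. There, 22 of 33 cells with a GPRC5D UMI also had one of ADGRG1, which 28.6% of the gate had. GZMB-high cells of the CD3E- CD2+ gate lay above CTSW-high cells in 6 of 6 libraries, with medians of 64.3 and 24.7 CPM. PP minus non-PP in this gate was -1.16 (SE 0.420, adjusted p = 0.350, edgeR).

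LTC4S (ENSSSCG00000028488, chr2:78799446-78802281) encodes leukotriene C4 synthase, known from mast cells. It was even over the ileal CD3E- CD2+ cells: 80.8 and 98.9 CPM in PP, 65.7 and 123 CPM in non-PP, 121 and 86.4 CPM in the libraries labelled whole ileum, against 2.79 and 1.51 CPM in blood. PP minus non-PP was -0.06 (SE 0.305, adjusted p = 0.992, edgeR). The ileum held 37.0-fold (14.2 to 137) and 75.0-fold (29.1 to 277) the blood level, and 26.0-fold in pig 1 without the library labelled whole ileum. Mast-like cells held more, 162 to 1674 CPM. In the CD3E- CD2+ gate the 4 mast markers with a named row summed to 5.48 to 148 CPM, with GATA2 at 0, HDC at most 2.74 CPM and MS4A2 at most 7.02 CPM. The fourth, FCER1A, is the one that rose with PP, and the part of these markers in the LTC4S level was not tested. ALOX5 and ALOX5AP, which make the substrate of the enzyme, stood at 0.193 and 2.71 CPM in the pooled gate against 249 and 710 CPM in mast-like cells. KIT was the gene most like LTC4S (r = 0.86). Cells of the gate with an LTC4S UMI held 2.65-fold the GPRC5D of those without, higher in 6 of 6 libraries. Of 16 named leukotriene genes, 5 reached 10 CPM in the 3 gates together.

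PDGFA (ENSSSCG00000007541, chr3:296399-322967) encodes a platelet-derived growth factor chain that acts on fibroblasts through PDGFRA. In CD3E- CD2+ cells it stood at 42.1 and 20.2 CPM in PP, 27.4 and 93.8 CPM in non-PP, 69.2 and 47.3 CPM in the libraries labelled whole ileum, and 30.6 and 77.6 CPM in blood, so that ileum and blood overlapped. The ratio of ileum to blood was 1.84 (1.28 to 2.68) in pig 1, 1.10 (0.631 to 1.88) without the library labelled whole ileum, and 0.971 (0.805 to 1.17) in pig 2. Epithelial-like cells held a similar level, 48.7 to 67.5 CPM. PP minus non-PP was -1.21 in this gate (SE 0.520, adjusted p = 0.443) and -2.22 in TRDC+ T cells (SE 0.527, adjusted p = 0.153, edgeR). In CD3E- CD2+ cells it passed without non-PP of pig 1 (-1.60, adjusted p = 0.0325, edgeR), with 1 non-PP library in the fit. The level in TRDC+ T cells was 1.62 to 16.0 CPM beside a free RNA limit of up to 9.32 CPM. PDGFRA had 2 UMIs in all ileal cells, from suspensions enriched for lymphocytes, so this count does not stand for the whole tissue. Of 7 genes of the family list, PDGFA alone reached 10 CPM in the 3 gates together.

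Counted over the members, PP minus non-PP could be tested for 9 members in TRDC+ T cells, 7 in CD8B+ T cells and 9 in CD3E- CD2+ cells; the others failed the filter on low counts. In the T gates edgeR called 0 of 9 and 0 of 7 members, beside 0.399% of 8516 and 0.232% of 7751 genes, and DESeq2 called 0 in either. At an unadjusted p under 0.05 were 3 and 1 members there, beside 1066 and 547 of all genes tested. In the CD3E- CD2+ gate 1 of 9 was called and 5 of 9 had an unadjusted p under 0.05, beside 539 of 5028 genes. With the pig as a replicate block, the genes called in the 3 gates went from 34, 18 and 15 to 112, 77 and 41. The median difference of the tested members was -0.68, -0.52 and -0.73 on the log2 scale in the 3 gates, beside medians of -0.02, 0.00 and -0.00 over all genes tested. A list of cytotoxic genes that includes GZMB and GNLY had medians of -0.88, -0.67 and -0.82. A list that includes CTSW and CCR9 had medians of -0.06, 0.09 and 0.78. The part of the gates' makeup in the members' medians was not tested. B cell markers moved with PP in the T gates: 4 of 5 tested rose in TRDC+ T cells and 3 of 5 in CD8B+ T cells, with a summed level of 11.09 to 506 CPM over the ileal libraries in TRDC+ T cells, and their part in the members' differences was not tested.

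The share of cells with a UMI in the leading gate lay above the range in ileal B-like cells for 10 of 10 members. For TAC3 this rests on 3 of 825 cells in non-PP of pig 2 and 1 of 152 in non-PP of pig 1, and after thinning its lowest share, 0%, was below the highest of B-like cells, 0.0969%. GPR82 was seen in 17.1% to 42.8% of TRDC+ T cells, against at most 5.36% of B-like cells. ADGRG1 was seen in 16.0% to 72.2% of CD3E- CD2+ cells, against at most 7.69%. LTC4S was seen in 11.2% to 25.5%, against 2.21% to 3.85%. GPRC5D was seen in 2.83% to 13.5% and KLK7 in 5.98% to 8.70% of cells of their gates. Cells with a GPRC5D UMI carried an ADGRG1 UMI in 82.5% of cases, against 56.2% of the whole gate. In their leading gates, 8 of 10 members had a higher level in ileum than in blood in both pigs, and PDGFA and ADGRG1 did not. The members were chosen on their levels by gate and in ileum against blood. The counts of 8 and 10 members thus follow in part from that choice, and no share over all genes is set beside them.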

How the data were processed

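Per the labels and the study's methods, cells of 8 libraries (4 sequencing runs each, combined here as 1 replicate) were captured with a 3' droplet kit. The authors deposited raw UMI counts, made with Cell Ranger (4.0.6 in the submitters' processing notes) against Sscrofa11.1 with a modified annotation, for 737280 barcodes per library before their removal of ambient RNA, poor cells and doublets; their final cells and cell types were not used here. Columns of per-sample values not used: 0. Of the features, 17733 carried a symbol and 951 were named from a gene table.

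Gates were set on UMIs per cell, counts were summed per library and gate, and CPM is per 1000000 UMIs of the gate. GZMB-high and CTSW-high need 2 UMIs. Intervals are 95% exact counting intervals; ratios to 0 use a floor of 3 counts. Intervals and floors cover counting error only. Precision follows depth: gates hold 106 to 1180 cells per library. Doublets were scored with Scrublet (scanpy 1.11.5) at an expected rate of 0.07 and kept, with their removal above 0.25 as an alternative. Free RNA was read from barcodes of 10 to 100 UMIs. Likeness is Pearson's r of log2(CPM + 10) over gate and library profiles of at least 20 cells, for genes with 50 UMIs.

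PP minus non-PP was tested with edgeR 4.0.16 (glmQLFTest, filterByExpr, TMM, 6 ileal libraries, Benjamini-Hochberg over all genes tested, called below 0.05) in R 4.3.3. DESeq2 1.42.0, RLE factors, no filter, a pig block, fewer libraries, each library left out, doublets removed and 2000 UMIs per cell were alternatives. The test was checked on simulated counts. The pairing comes from the labels, where libraries with the same number are from the same pig. The pig differences of PP and non-PP correlated at 0.45, 0.51 and 0.38 in the 3 gates, and those with the libraries labelled whole ileum at -0.20 to 0.02. P-values measure the spread between the 2 libraries of a group, estimated over all ileal groups together. By DDX3Y, the libraries labelled whole ileum may not come from 2 pigs. The pig block on 6 libraries takes the labels as they stand, so it may pair the library labelled whole ileum pig 1 wrongly. In fits that leave out a PP or non-PP library, the lone library of that group is assumed to vary like the other groups.

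Named genes are the 10 members, the listed pathway genes and the 3 genes most like each member. Of the genes most like a member, 1 is not reported here. The members and lists were chosen with earlier results of these data known.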

Additional observations from a re-analysis of the deposited data

Results flagged for a closer look

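ADGRG1 was flagged because the same contrast, ileum against blood, went opposite ways in different gates in both pigs. In TRDC+ T cells the ileum held 1.28-fold the blood level in pig 1 and 4.10-fold in pig 2, and in CD8B+ T cells 0.630-fold and 0.344-fold. The difference between the gates was not tested. Without the libraries labelled whole ileum the ratios were 1.49 and 4.88 in TRDC+ T cells and 0.818 and 0.392 in CD8B+ T cells. Within TRDC+ T cells of pig 1, PP (98.3 CPM) and the library labelled whole ileum (111 CPM) lay below blood (152 CPM), so the pooled ratio rests on non-PP (307 CPM).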

How the results depend on the processing

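The number of genes called between PP and non-PP depended on the settings, while the call of TAC3 in CD3E- CD2+ cells held in each alternative that could be fitted. In the TRDC+ T gate 34 genes were called, against 161 with DESeq2, 720 with no filter on low counts, 18 with the 4 PP and non-PP libraries and 5 (without PP pig 1) to 64 (without non-PP pig 1) when leaving out a library. In the CD8B+ T gate 18 became 55 with DESeq2, 10 with RLE factors, 299 with no filter, 1 without doublets, 10 at 2000 UMIs per cell and 7 (without PP pig 1) to 55 (without non-PP pig 2) when leaving out a library. In the CD3E- CD2+ gate 15 became 33 with DESeq2, 254 with no filter, 4 at 2000 UMIs per cell and 2 (without PP pig 1) to 215 (without non-PP pig 1) when leaving out a library. With the pig as a replicate block the counts were 112, 77 and 41, and with the block on the 4 PP and non-PP libraries, added after seeing the data, 294, 401 and 287. Among CTSW-high cells only, also added, edgeR called 0 (377 at an unadjusted p under 0.05), 5 and 1 genes, and among GZMB-high cells 36 in TRDC+ T cells, 5 in CD8B+ T cells and 0 in CD3E- CD2+ cells (97 at an unadjusted p under 0.05). The block changed the call of ADGRG1 in both T gates and of no other member test listed here; on the 4 libraries it also called GPR82 and PDGFA in CD3E- CD2+ cells.

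Small differences changed sign. LTC4S in CD3E- CD2+ cells was 0.064 at 2000 UMIs per cell, 0.074 in GZMB-high cells and 0.50 in CTSW-high cells; KLK7 was -0.18 and IGFBP2 0.075 in GZMB-high CD8B+ T cells. Leaving out a library moved PDGFA (-1.69 to 0.0069), GPR82 (-2.65 to 0.34) and LTC4S (-0.31 to 0.44) in CD3E- CD2+ cells, GPR82 (-1.37 to 0.25) and MFAP5 (-0.40 to 0.13) in TRDC+ T cells, and KLK7 (-0.13 to 0.24) and IGFBP2 (-0.31 to 0.20) in CD8B+ T cells. By mean over the ileal libraries, the leading gate of 10 of 10 members held with 2 UMIs for the T gates, without the exclusion of B markers, without doublets and with free RNA subtracted. With no filter on low counts ADGRG1 and PDGFA were called in 3 of 3 gates, GPR82 in TRDC+ T and CD3E- CD2+ cells and GPRC5D in TRDC+ T cells. The causes were not tested. Depth limits low members: with cells thinned to the lowest depth kept, a KLK7 UMI was seen in 2.03% to 3.795% of ileal CD8B+ T cells, against 5.98% to 8.70% unthinned.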
